A study of Arapaima gigas with 24 samples.

Results

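The gene models described here are 100 of the 22016 counted in gonad and brain of Arapaima gigas (pirarucu, a large air-breathing fish of South American rivers), those that stood higher in the gonad than in the brain of the same animal in every fish. They were selected on the measured counts themselves. A level here is the log2 of counts per 1000000 (CPM) plus 0.5, less the median of that sample over all gene models, so that 0 is the sample's middle gene model. The 220 gene models of highest mean CPM were dropped first, and then 5420 whose mean level differed between males and females by 0.3 or more in gonad or brain. Of the 16376 that remained and could be chosen, 211 had a higher level in the gonad than in the brain in all 6 fish, which is 1.29%, and the 100 with the largest mean difference were kept. The gonad minus brain difference and the small difference between the sexes are therefore properties of the choice and are given as descriptions.

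The 6 fish were 3 males and 3 females from a farm, which the labels give as aged 4+ years and in the breeding season, sexed by spermatozoa in the testis or primary oocytes in the ovary. There was no treatment, and strain, family and pond are not given in the labels. The 4 groups were testis and male brain, and ovary and female brain, each with 3 fish, and the gonad and brain of a number came from 1 fish. Poly(A) RNA was read on a SOLiD sequencer, in 24 libraries per the labels, so that each tissue of each fish has 2. They differ by a title prefix that the labels do not explain, are taken here as 2 libraries called run 1 and run 2, and their counts were added.

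Gonad and brain do unlike work. The gonad makes germ cells, which divide by meiosis and silence transposons with a small RNA pathway of their own, among supporting and steroid-making cells, while the brain is built of neurons and glia. In well annotated vertebrates, the genes that stand above the brain in both ovary and testis include many of meiosis and of the germ line. Whether any of the 100 is such a gene was not tested, since the identifiers are numbers of gene models made on the genome of the Asian arowana (Scleropages formosus), a related fish, and nothing used here pairs them with names, sequences or positions. For the same reason neither tissue could be checked against its defining markers, and the lists of germ cell, oocyte, testis, neuron, glia, blood, immune and other marker genes could not be applied. The tissue of each sample is therefore taken from the labels, and whether the samples hold the labelled tissues was not tested. Between samples labelled gonad and brain, the main test given below (edgeR) called 0 of 22014 gene models. An alternative, DESeq2, called 20 of the 10491 to which it gave an adjusted p. The counts thus showed little of the labelled contrast by these tests. Reads were mapped to arowana sequence, so levels of different gene models depend on how closely the species match and are compared here between samples of 1 gene model. CPM across gene models is given only as depth of counting.

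The 12 summed samples held 5689872 to 13142667 counts. A member had a median of 181 to 335 counts in the gonad samples and of 128 to 319 in the brain samples, and single values ran from 7 to 3589. The 220 most abundant gene models, none of them a member, took 13.2% to 26.4% of counts in gonads and 11.4% to 26.5% in brains. In bulk tissue, more cells of a type and more RNA per cell cannot be told apart.

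The gonad stood above the brain by small steps. Averaged over the 6 fish, the difference of a member was 0.62 log2 units at the first rank (1.54-fold), 0.27 at rank 50 (1.21-fold) and 0.21 at rank 100 (1.16-fold), with a median of 0.27 over the 100, against -0.01 over all that could be chosen. Only 2 members reached 0.5, 31 reached 0.3 and 0 reached 1. Most gene models that could be chosen also differed little between the tissues. Their quartiles were -0.099 and 0.088 in male 2, the narrowest, and -0.18 and 0.19 in female 3, the widest. At the end of the list the values ran on without a step, with 0.2092 at rank 99, 0.2092 at rank 100, 0.2076 at rank 101 and 0.2068 at rank 102. The opposite choice by the same rule, brain above gonad in all 6 fish, had 474 gene models to draw on, and its 100 largest ran from -0.94 to -0.25 with a median of -0.30.

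**Figure D1:**
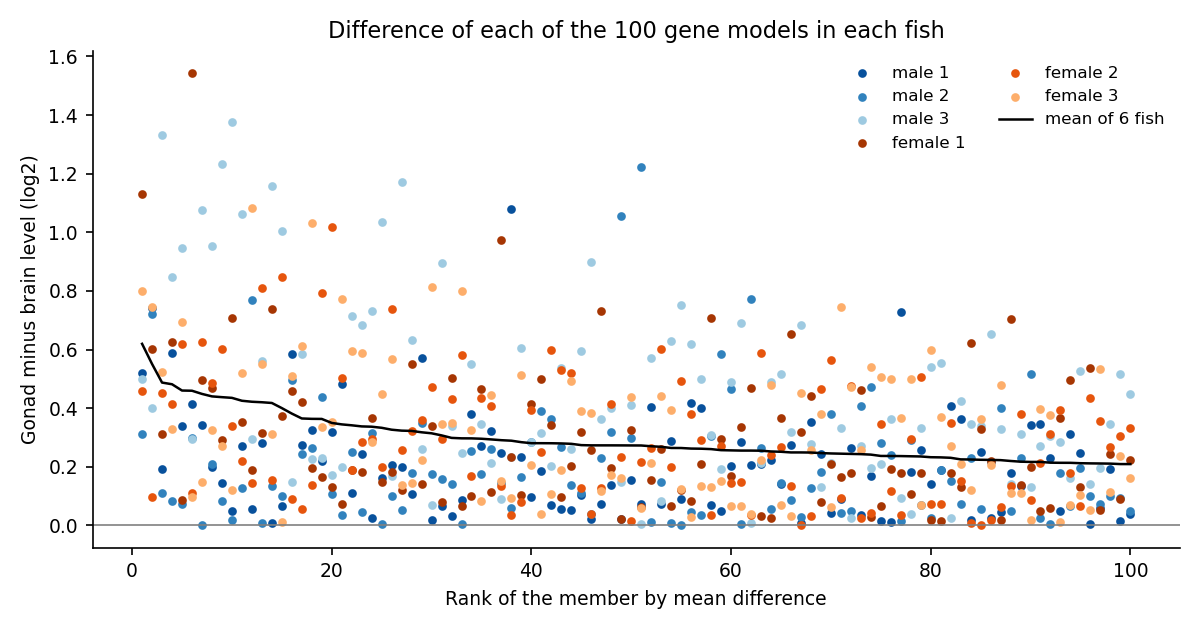
Gonad minus brain level (log2, vertical axis) of each of the 100 members in each fish (points, coloured by fish), against the member's rank by mean difference (horizontal axis), with the mean of the 6 fish as a black line. The means fall from 0.62 to 0.21, all points lie above 0 because the rule asked for it under median centring, and single fish reach 1.54; with total counts alone 12 of the 100 members keep all 6 points above 0.

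The gene model at rank 1 was counted at 27.1, 27.9 and 24.4 CPM in the testes of males 1, 2 and 3 and at 22.0, 22.8 and 20.1 CPM in their brains. In females 1, 2 and 3 it had 43.9, 19.4 and 26.9 CPM in the ovary and 22.1, 13.6 and 16.0 CPM in the brain. The ovary of female 1 was the highest of the 12 samples, and the brain of female 2 the lowest. In CPM the gonad and brain values overlapped across fish, since the ovary of female 2 lay below 4 of the 6 brains. On the centred log2 scale they did not, with a lowest gonad level of -0.12 and a highest brain level of -0.20. The difference was 0.62 ± 0.30 (SD, n = 6 fish), from 0.31 in male 2 to 1.13 in female 1. Its 95% counting interval, an exact Clopper-Pearson interval on the gonad's part of the gonad and brain counts, was 0.07 to 0.57 in male 2 and 0.91 to 1.39 in female 1.

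The gene model at rank 2 had 20.6, 16.6 and 12.9 CPM in testes and 14.3, 10.0 and 11.4 CPM in male brains. Its values were 15.8, 10.7 and 18.5 CPM in ovaries and 11.4, 9.70 and 11.4 CPM in female brains. The testis of male 1 was highest and the brain of female 2 lowest. The difference averaged 0.55 ± 0.26 (SD, n = 6 fish) and was smallest in female 2, at 0.10, where 102 counts in the ovary and 104 in the brain gave a counting interval of -0.31 to 0.51.

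**Figure D2:**
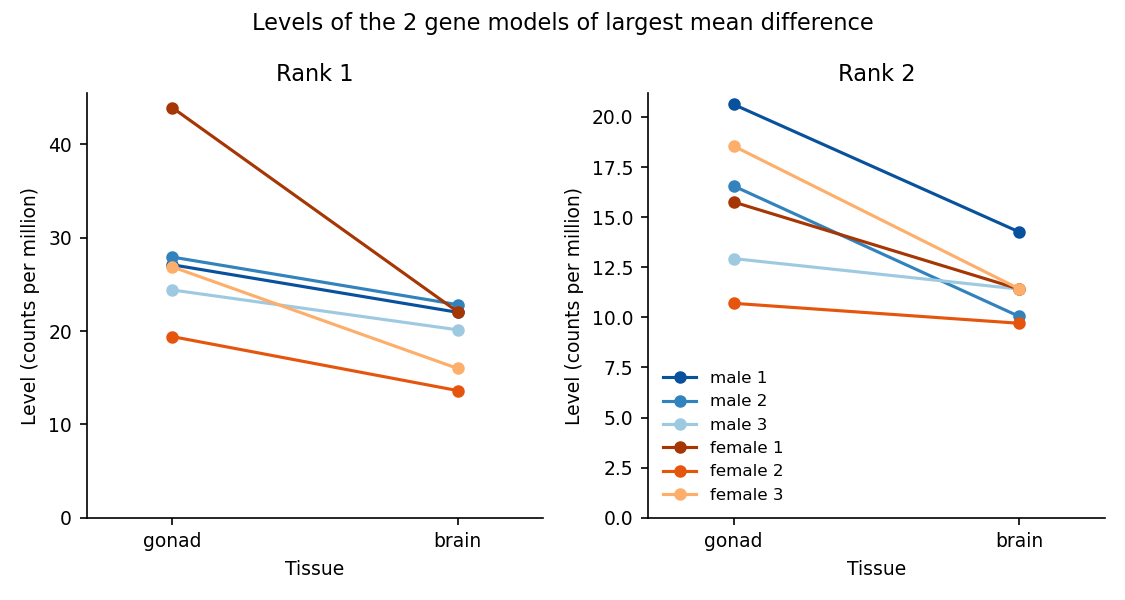
Level (CPM, vertical axis) of the 2 gene models of largest mean difference in the gonad and brain of each fish, with a line joining the tissues of a fish. All lines slope down to the brain. The steepest is that of female 1 for rank 1, on the left, with 43.9 CPM in the ovary and 22.1 CPM in the brain, and that of female 2 for rank 2 is nearly level, with 10.7 CPM in the ovary and 9.70 CPM in the brain.

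The members below these differed in which fish carried the difference. The member at rank 3 had 12.4, 14.1 and 25.5 CPM in testes and 12.7, 13.3 and 11.6 CPM in male brains, so that its difference was 1.33 in male 3 and 0.11 to 0.52 in the other 5 fish. In male 1 its CPM was lower in the testis than in the brain. At rank 6 it was 1.54 in female 1, with 42.3 CPM in the ovary and 15.8 CPM in the brain, and 0.10 to 0.41 in the others. The members at ranks 4, 5, 7 and 8 were highest in male 3, with differences of 0.85, 0.95, 1.08 and 0.95, and their means over the 6 fish were 0.48 ± 0.27, 0.46 ± 0.35, 0.45 ± 0.38 and 0.44 ± 0.28 (SD, n = 6 fish). The smallest fish value at rank 7 was 0.0024, in male 2, with 62.9 CPM in the testis and 64.0 CPM in the brain. There too the CPM was lower in the testis, and only the centring on the sample median placed the gonad level above.

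Male 3 led more members than any other fish. The largest of a member's 6 differences was in male 3 for 39 members, in female 3 for 20, in female 1 for 16, in female 2 for 15 and in males 1 and 2 for 5 each. Among all gene models that could be chosen, male 3 held the largest difference in 16.7% and female 3 in 23.8%. In the 39 members led by male 3 the median difference was 0.68 in that fish, and the mean of the other 5 fish had a median of 0.21. In the other 61 members these medians were 0.25 and 0.27. Of the 25 highest ranked members 14 were led by male 3. The largest fish supplied a median of 36.9% of the sum of a member's 6 differences, and at most 74.8%. The rule chose the members on these same 6 differences, so the shares over all gene models are no yardstick for them. Nothing is read from the lead of male 3.

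The smallest of the 6 differences was close to 0 in most members. It had a median of 0.039, lay under 0.05 in 56 members and under 0.1 in 83, and was 0.2 or more in 1 member, the one at the head of the list. The smallest value fell in male 2 for 29 members and in male 1 for 26. The SD over the 6 fish of a member's difference had a median of 0.22, close to the mean difference itself. Over all gene models that could be chosen this median was 0.21. In 77 members the mean was above the SD, a count that was not taken over all gene models and that the choice bears on.

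By fish, the median difference over the members was 0.19, 0.15 and 0.34 in males 1, 2 and 3 and 0.21, 0.27 and 0.30 in females 1, 2 and 3. Over all gene models that could be chosen, it was -0.013, -0.0064 and -0.057 in those males and -0.042, 0.0025 and 0.0045 in those females. Seen by tissue, the members spread more between gonads than between brains, with a median SD over the 6 samples of 0.24 in gonads and 0.15 in brains. The same medians over all that could be chosen were 0.17 and 0.13. Each SD was taken across both sexes, and the 6 gonads are 3 testes and 3 ovaries. The rule used these levels, and how far the choice itself widens the members' spread was not tested. The highest of a member's 12 samples was always a gonad, which was that of male 3 in 34 members and of female 3 in 23, and the lowest was always a brain, which was that of male 2 in 26 and of female 2 in 22. The rule makes this so for any member, as the gonad exceeds the brain in each fish.

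**Figure D3:**
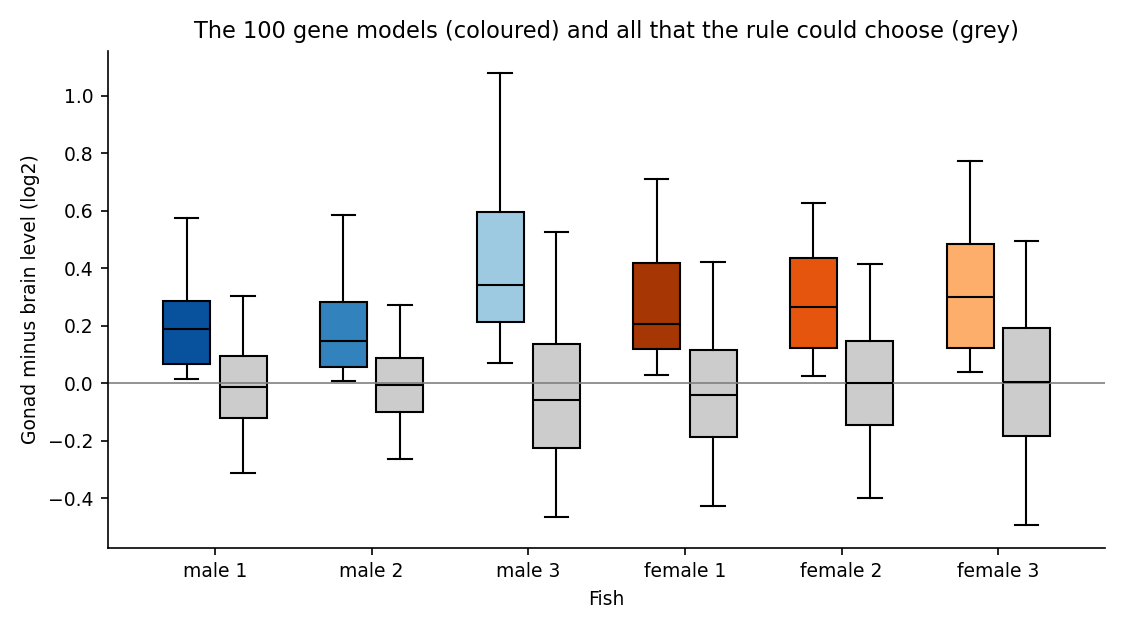
Gonad minus brain level (log2, vertical axis) by fish for the 100 members (coloured boxes) and for the 16376 gene models that could be chosen (grey boxes). Boxes span the quartiles with the median as a line and whiskers run from the 5th to the 95th percentile; the members' medians lie between 0.15 in male 2 and 0.34 in male 3 (with total counts alone that of male 1 is -0.034), and male 3 and the females have wider grey boxes than males 1 and 2.

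The share of all counts taken by the 220 most abundant ones differed between the tissues of some fish. It was 21.0%, 13.2% and 20.5% in the testes of males 1, 2 and 3 and 12.6%, 11.4% and 14.7% in their brains. It was 22.2%, 26.4% and 21.5% in the ovaries of females 1, 2 and 3 and 17.4%, 26.5% and 22.7% in their brains. Scaled by total counts only, all 22014 gene models tested had a median edgeR log2 fold change of -0.12, the members' median difference was 0.16 in place of 0.27, and 12 of the 100 stood above the brain in all 6 fish. By fish, the members' median difference on that scale was -0.034, 0.12 and 0.11 in males 1, 2 and 3 and 0.053, 0.30 and 0.23 in females 1, 2 and 3, so that its direction turned in male 1. Over all gene models that could be chosen it was -0.24, -0.03 and -0.28 in those males and -0.19, 0.04 and -0.07 in those females. These lie below the members in each fish, which follows from the choice and from which nothing is read. In each fish the 2 scales differ by the same amount for every gene model, and the rule asked members to be above 0 under median centring. With TMM scaling, which estimates a factor per sample from the bulk of gene models, 95 of the 100 stood above the brain in all 6 fish. Within the rule's limits 247 gene models did so under that scaling. The members were chosen on the same counts, so nothing is read from the 95. The part that the share of the 220 most abundant gene models has in the differences was not tested.

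The first question was whether any member differed between gonad and brain by a test over all gene models. With the fish as a block, edgeR's quasi-likelihood F test on the counts called 0 of the 100 members and 0 of 22014 gene models tested (0%) at a Benjamini-Hochberg adjusted p under 0.05. The lowest adjusted p of a member was 0.783. At an unadjusted p under 0.05, 91 members were higher in the gonad, beside 2.96% of all gene models, and since the rule used the same contrast, nothing is read from the 91. The member at rank 1 had an edgeR log2 fold change of 0.64 with an unadjusted p of 0.00033, which only 4 gene models undercut, and that at rank 2 one of 0.58 with 0.000346; both had an adjusted p of 0.783. After them rank 4 had the lowest p, with a fold change of 0.50 and an unadjusted edgeR p of 0.00102. DESeq2 gave an adjusted p to 47 of the members and called 2 of them, where it called 18 of 10491 gene models higher in the gonad (0.172%). limma-voom called 0 members, with 94 at an unadjusted p under 0.05 and higher in the gonad, beside 3.16% of all.

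Within each sex the count of calls was the same. Between testis and male brain edgeR called 0 members and 0% of 22015 gene models, and 34 members were at an unadjusted p under 0.05 and higher in the testis, beside 2.65% of all. Between ovary and female brain it called 0 members and 0% of 22006, with 29 at an unadjusted p under 0.05 and higher in the ovary, beside 1.76% of all. With the replicate block these were 28 members, beside 1.95% of all, in males and 25, beside 1.74% of all, in females. DESeq2 called 1 member in males, where it called 0.181% of 16013 gene models higher in the testis, and 0 in females, where it called 0.0273% of 21974 higher in the ovary. limma-voom called 0 members in both. These fits share samples with the one over 6 fish. The 3 testes lay above all 3 male brains in 51 members, beside 3.3% of the gene models that could be chosen, and the 3 ovaries above all 3 female brains in 49, beside 2.8%. Both held in 25 members, a count that was not taken over all gene models that could be chosen. All 6 gonads stood clear of all 6 brains in 9 members, beside 0.0611% of those that could be chosen, and again the rule used these values.

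The rule bounds how far the tissue difference can differ between the sexes. Its mean over 3 fish had a median of 0.28 over the members in males and 0.27 in females, and it was larger in males for 50 members. The male minus female difference of the tissue difference ran from -0.45 to 0.34. As an interaction of sex and tissue, edgeR called 0 members and 0% of 22015 gene models, with 1 member at an unadjusted p under 0.05, beside 2.59% of all. This fit, like those of DESeq2 and limma-voom for the interaction, left out the block for fish. With the replicate block edgeR had 1 member at an unadjusted p under 0.05, beside 442 of 22015 gene models. DESeq2 called 0 members and 2 of 21958 gene models (0.00911%), and limma-voom called none of either. The members' own sex difference, male minus female, had a median of -0.07 in the gonad and -0.06 in the brain.

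Measures that the rule did not use say how far these differences carry to another fish. The whole rule was therefore applied to 5 fish at a time, and the 100 gene models it chose were read in the fish left out. In the 5 choosing fish their median difference was 0.29 to 0.37. In the fish left out it was 0.066 for male 1, 0.0034 for male 2, -0.0092 for male 3, -0.0018 for female 1, 0.071 for female 2 and 0.0011 for female 3. Over the 6 fish this gave 0.022 ± 0.037 (SD, n = 6 fish, whose lists overlap). The gonad lay above the brain in the fish left out for 70, 52 and 48 of the 100 in males 1, 2 and 3 and for 49, 63 and 50 in females 1, 2 and 3. These are 332 of 600 readings, or 55.3%, where all gene models that could be chosen gave 46.6% on average. By fish those backgrounds were 46.2%, 47.9% and 41.6% in males and 41.8%, 50.7% and 51.3% in females. The share thus lay above the background in 5 fish and below it in female 3, and the median difference in a fish left out was at most 0.071. Male 1 gave the widest gap, with 70% against 46.2%. With only the 50 largest of each list, the median in the fish left out averaged -0.013 ± 0.068 (SD, n = 6 fish), and the share lay below the background in male 3, at 40% against 41.6%, and in female 3, at 36% against 51.3%.

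**Figure D4:**
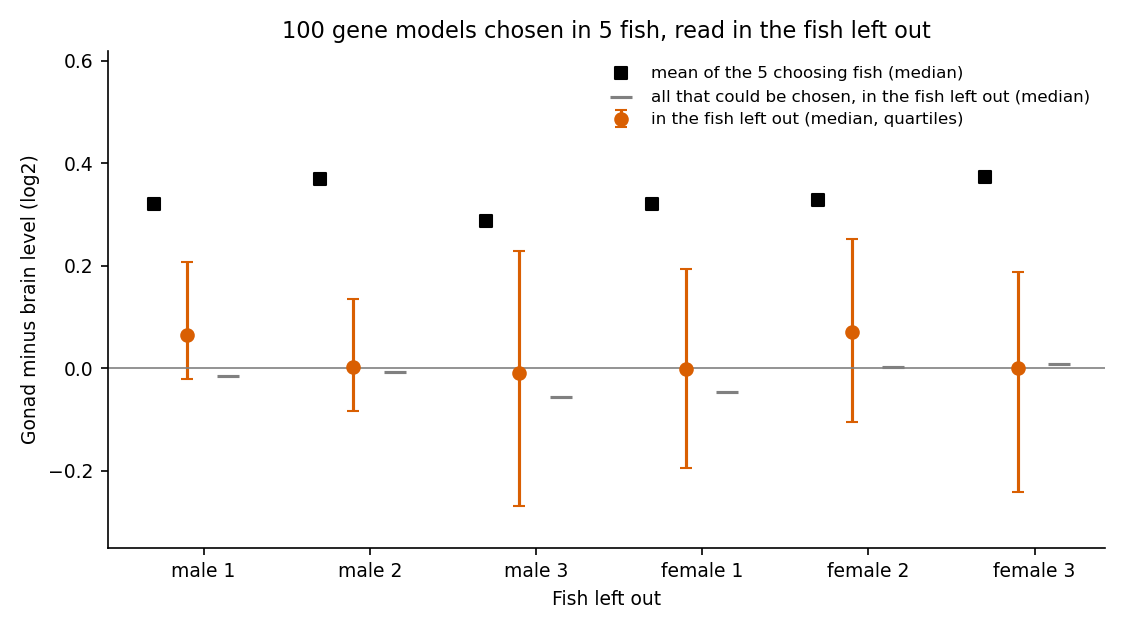
Gonad minus brain level (log2, vertical axis) of 100 gene models chosen by the rule in 5 fish, for each fish left out (horizontal axis). Black squares are the median of their mean in the 5 choosing fish, orange points and bars the median and quartiles in the fish left out, and grey dashes the median in that fish of all gene models that could be chosen; the squares lie at 0.29 to 0.37 and the orange points at -0.0092 to 0.071.

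The lists chosen from 5 fish shared 39 to 62 of their 100 with the list from all 6 fish, the fewest without female 3 and the most without male 1. From 343 to 455 gene models stood above the brain in all of 5 fish, where 211 did in all 6.

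The 2 runs of a sample were compared next. The labels give 24 libraries, so the 2 runs are taken as separate libraries, though their title prefix is not explained. Both start from RNA of the same fish, so their agreement says nothing of other fish. Of the 600 differences, 100 members in 6 fish, 446 were above 0 in both runs (74.3%), 529 in run 1 and 517 in run 2. Above 0 in all 6 fish were 44 members in run 1, 37 in run 2 and 11 in both. Of the gene models that could be chosen in a single run, 207 of 15002 were so in run 1 and 200 of 15057 in run 2. The share for both runs was not taken, and the members were chosen on the sum of the runs. The 2 runs' differences of a member in a fish lay a median of 0.21 apart. Their means over the 6 fish were closer, with a median over the members of 0.29 in run 1 and 0.28 in run 2, and across the 100 members these means correlated with r = 0.15. That r is a description over gene models that share libraries, and a least mean over both runs was a condition of being a member. Most members were above 0 in both runs in male 3 and female 3, with 83 and 82, and fewest in males 1 and 2, with 65 and 66. The members' median differences were also largest in male 3 and female 3, at 0.34 and 0.30, and smallest in males 1 and 2, at 0.19 and 0.15. These counts therefore do not measure how well the runs agree.

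**Figure D5:**
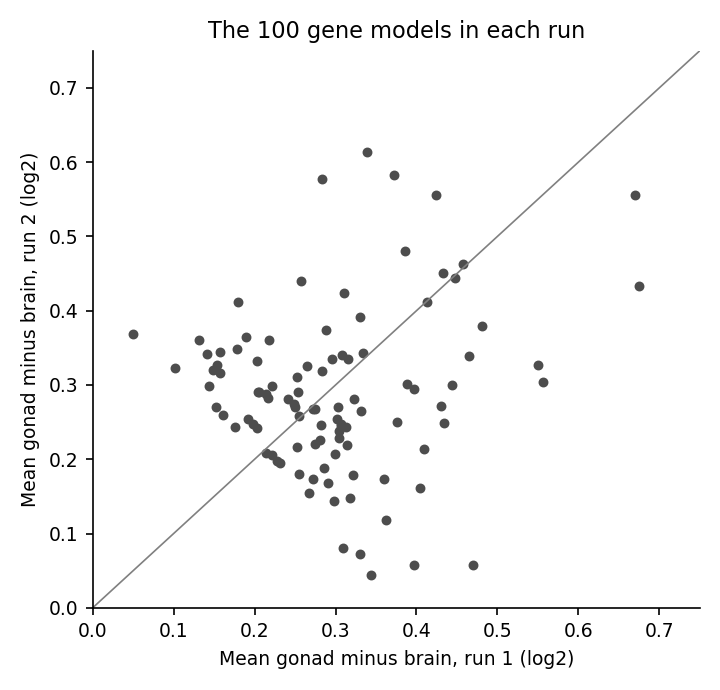
Mean gonad minus brain level over the 6 fish (log2) of each of the 100 members in run 1 (horizontal axis) and run 2 (vertical axis), with the line of equality. Points run from 0.05 to 0.67 in run 1 and from 0.04 to 0.61 in run 2, all are above 0 in both, and the empty lower left corner follows from the least mean difference asked of a member.

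The rule was also applied to 1 run at a time and its list read in the other run of the same fish. The 100 gene models chosen by the rule in run 1 had a median difference of 0.32 there and 0.21 in run 2, and 89 kept a mean above 0. Those chosen in run 2 had 0.30 there and 0.17 in run 1, and 91 kept a mean above 0. All gene models that could be chosen had a median of -0.01 in both cases. By single fish, 69% of the readings in the other run were above 0 in both cases, against 47.5% and 47.4% of all that could be chosen. In the other run 11 of the list from run 1 and 9 of that from run 2 stayed above 0 in all 6 fish. For comparison, 200 of the 15057 gene models that could be chosen in run 2 stood so there, and 207 of 15002 in run 1. These could be chosen by the run that was read. The share over those that the choosing run could choose was not taken. The list from run 1 shared 33 gene models with the 100 members and that from run 2 shared 27.

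Counting error alone left most single differences undecided. In 254 of the 600 readings (42.3%) the 95% counting interval lay wholly above no difference, where 11.1% did over all gene models that could be chosen in the 6 fish. The number of members so placed was 27, 32 and 62 in males 1, 2 and 3 and 39, 47 and 47 in females 1, 2 and 3. The rule required all 600 readings to be above 0 on these same counts. A higher share than over all gene models follows from the choice, and nothing is read from it. An interval wholly above no difference in all 6 fish was found for 3 members. These, at ranks 1, 8 and 19, were also the 3 with the largest smallest-fish difference, at 0.31, 0.20 and 0.16. For ranks 8 and 19 the interval in male 1 rests on the median centring. There the CPM was 54.3 in the testis and 55.3 in the brain at rank 8, and 74.0 and 74.1 at rank 19. The member at rank 8 had 54.3 to 79.7 CPM (median 64.6) in the gonads and 44.3 to 57.3 CPM (median 53.8) in the brains, so that the tissues overlapped across fish. At rank 19 the values were 74.0 to 117 CPM (median 75.7) in the gonads and 62.9 to 78.7 CPM (median 74.6) in the brains. In 5 members no fish passed, and 49 members had at least 3 fish that did. The counts of 3, 5 and 49 members were not taken over all gene models that could be chosen, so they have no background. These intervals cover counting error only, and reads without molecular identifiers are not independent molecules. The 2 runs of a sample differed by a median chi-square of 4.15 per degree of freedom, more than counting error alone gives. The intervals leave that spread out.

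In depth of counting the members were spread over the range of gene models that could be chosen. Their mean CPM over the 12 samples, which takes no account of transcript length, had a median of 25.04 CPM, against 25.21 CPM over all that could be chosen, and ran from 2.24 to 247 CPM. With all that could be chosen split by mean CPM into 5 classes of equal size, the members numbered 26, 18, 15, 19 and 22 from the lowest class to the highest. In 3 members 1 sample lay at least 2-fold above the other 11, and the largest such ratio was 2.29. The rule's limit on the sex difference bounds such peaks, and their share over all gene models that could be chosen was not taken. Across the members, the pairwise correlations of the fish in their differences ran from -0.36 for males 2 and 3 to 0.09 for male 1 and female 1, against -0.28 for females 1 and 3 to 0.29 for male 3 and female 3 over all. They are descriptions over gene models, the choice of members bears on them, and the fish share no library. In identifiers, 1 pair of members carried consecutive numbers. Whether such numbers mean neighbours on the genome was not tested.

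Without the limits on sex difference and abundance, 334 gene models stood above the brain in all 6 fish, and 559 below it. Of the 334, the sex limit had removed 121 and the abundance limit 2. Of the 100 members, 24 were also among the 100 largest of the 334, whose highest mean difference was 1.06.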

How the data were processed

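Reads were aligned to the Asian arowana genome by the authors, as the series' design text states. Bowtie is named, without a version, per the submitters' processing notes. The counting tool, build, annotation, use of strand and treatment of multiple matches are not stated in the labels, so gene models with close copies are uncertain. The deposited table holds raw read counts per gene model and library, 24 columns, without normalization. The members and lists were chosen with earlier results of these data known.

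The 2 runs of a sample, which differed by a median chi-square of 4.15 per degree of freedom against 24.9 between fish of a group, were summed. Nothing says whether library pairs came from separate extractions. edgeR 4.0.16 (quasi-likelihood F test, TMM, minimum count 10, total 15) in R 4.3.3 was fitted across all gene models. Fish was a block for gonad minus brain over 6 fish, and not within a sex or for the interaction. DESeq2 1.42.0, limma-voom 3.58.1, other scalings, filters, single runs and omission of each fish were alternatives. The edgeR fits were tested on simulated counts with 2-fold changes in the gonad, larger than the mean difference of any member. That test does not show whether differences as small as the members' would be called. Pairing comes from the labels, which give 1 fish per number. Deviations of its tissues from their group means correlated at r = -0.05, 0.05 and -0.14 in males and -0.02, 0.31 and 0.04 in females.

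Members are given by their rank, without identifiers: the first 8, the 2 on either side of rank 100, and the 3 of lowest p and of largest smallest-fish difference. Naming the 25 largest members by gene and applying the marker lists needed gene names and were not done.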

Additional observations from a re-analysis of the deposited data

Results flagged for a closer look

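Among the 11 members described singly, 2 had 1 fish far from the other 5. The member at rank 3 had a difference of 1.33 in male 3, against 0.11 to 0.52 in the others, and the gap took 0.661 of the range of the 6 values, above Dixon's 95% critical value for 6 values. The member at rank 6 had 1.54 in female 1, against 0.10 to 0.41, with a gap of 0.780 of the range. Of the 100 members 12 were past that value, as were 6.56% of all gene models that could be chosen. Chance flags about 1 in 20 where values were not chosen. The rule chose the members on these same 6 differences, so neither share is a yardstick for them. Nothing is read from the 12. Without male 3, 46 of the 100 gene models chosen by the rule were members, and without female 1, 44.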

How the results depend on the processing

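The members' median difference was 0.25 to 0.30 under other pseudocounts, single runs, TMM and omission of each fish, which their choice largely fixes and which shows no stability. With total counts alone it was 0.16, 12 of the 100 stood above the brain in all 6 fish, 29 gene models within the rule's limits did so, where 211 did with median centring, and 9 of the 100 were found again. The rule found 33 of the 100 in run 1 alone, 27 in run 2 alone, 24 without the sex limit and 39 to 62 without 1 fish, the fewest without female 3. In run 1 and run 2 alone 44 and 37 of the 100 stood above in all 6 fish, beside 207 of 15002 and 200 of 15057 that could be chosen there. The cause was not tested.

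Over 6 fish DESeq2 called 2 members and 20 gene models. Without the replicate block, with upper-quartile scaling, with total counts alone and at an adjusted p under 0.1, 1 gene model and 0 members were called in each case. At an unadjusted p under 0.05 edgeR had 1263 gene models and 91 members over 6 fish, 34 members in males, 29 in females and 1 for the interaction, none of which counts as a call. DESeq2 called 1 member in males. The 91 became 15 with total counts alone, 61 in run 1 alone and 60 in run 2 alone. The 34 became 11 to 26 without 1 fish (11 without male 1, 13 without male 3), and the 29 became 9 to 16 (16 without female 1, 9 without female 2, 15 without female 3), with 2 fish left per tissue. Without female 1 the interaction had 7 called gene models and without male 3 the testis fit had 1, with 0 members in both. The replicate block gave 0 called members in males, females and the interaction. Counts at an unadjusted p, those above in all 6 fish and the rule on total counts were added after the data were seen. Of 134 alternatives 34 moved a value beyond its limit. Lists of the 50 or 200 largest and a pseudocount of 2 gave 50.7%, 53.3% and 55.7% above the brain in the fish left out, beside 46.6%, 46.6% and 46.7% of all that could be chosen. With the 50 largest, 2 fish lay below that background in place of 1, and the median averaged -0.013.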
